A study of Mus musculus with 18 samples.

Results

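The genes described here take up, store and export iron. They are the exporter gene Slc40a1, the importer genes Slc11a2 and Tfrc, the ferritin genes Fth1 and Ftl1, the ferroxidase genes Cp and Heph, Hfe, and the iron regulatory protein genes Ireb2 and Aco1. Members were chosen by name, as every probe set of the 3 chips that the platform annotation ties to 1 of these 10 gene symbols alone. This gave 20 of the 36701 probe sets of the chips, 11 on chip A, 5 on chip B and 4 on chip C, and they measured 9 of the 10 genes, out of 15964 genes named on the chips. Ftl1 had no such probe set, because the probe set that bears its name also bears that of the pseudogene Ftl1-ps2, and its level is not reported.

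The study compared sorted cells of mouse retina at postnatal day 8. All mice were FVB/N and homozygous for a Tie2-GFP transgene, and their retinas were pooled and dissociated with papain. GFP-positive cells stood for endothelium and GFP-negative cells, from the same kind of transgenic retina, for all other retinal cells. The promoter of Tie2 drove the GFP and is also known to be active in some blood-forming and myeloid cells. Amplified RNA of each population was hybridised to Affymetrix MGU74v2 chips, 3 arrays for each population on each of chips A, B and C. Nothing in the labels says that the arrays came from separate pools of mice, so p-values measure the spread between arrays, which may be technical, and the number of arrays limits the precision.

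Iron reaches the neural retina across the endothelium of its vessels. Cells take up transferrin-bound iron through the transferrin receptor, move it out of endosomes through DMT1, hold it in ferritin shells and release it through ferroportin, the sole known iron exporter of mammals. Ferroxidases on or near the cell surface then oxidise the released iron so that transferrin can bind it, and the iron regulatory proteins adjust these messages to the iron content of the cell by binding elements in their untranslated regions.

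In GFP-positive cells the exporter message Slc40a1 was far brighter, and Tfrc and Fth1 each had at least 1 brighter probe set, whereas the ferroxidase message Cp was dimmer. The other ferroxidase message, Heph, was also dimmer, but its call ended when any GFP-positive array was left out. Among the 20 probe sets 5 passed as higher in GFP-positive cells and 2 as lower, at an adjusted p under 0.05 (limma on the log2 of intensity plus 16, Benjamini-Hochberg within a chip), against 7.42% higher and 8.86% lower among all probe sets. On chip A 2 of 11 were higher and 2 lower, where 9.09% and 9.25% of all probe sets were. On chip B 3 of 5 were higher, where 9.6% were higher and 11.3% lower. On chip C, where 3.4% of all probe sets were higher and 5.88% lower, none of the 4 passed in limma, and 1 had an unadjusted p under 0.05. The median log2 difference of the 20 was 0.12, and that of all probe sets 0.05. At 9 of the 20, against 37.3% of all, every array of one population lay above every array of the other. All differences are GFP-positive minus GFP-negative. In sorted populations a dimmer message can come from fewer cells that hold it or from less of it per cell, which cannot be told apart.

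GFP-positive replicate 3 stood apart on every chip. Its Spearman correlation over probe sets with the other arrays of its population was 0.911 to 0.929, against 0.960 to 0.987 for the other pairs of 1 population. Without it 8 member probe sets were higher and 1 was lower, while the higher calls over all probe sets went from 2723 to 4770 and the lower calls from 3252 to 4805, so member calls, and results that rest on this array, are given with and without it. Of 12 endothelial markers, 11 were higher in GFP-positive cells, with summed intensities of 12640 to 15330 against 239.9 to 294.9, and Egfl7 did not pass. Of 9 Müller glia markers 8 were lower in GFP-positive cells, and of 10 pericyte markers none passed in limma, with 1 at an unadjusted p under 0.05 and 1 passing as lower without GFP-positive replicate 3.

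**Figure D1:**
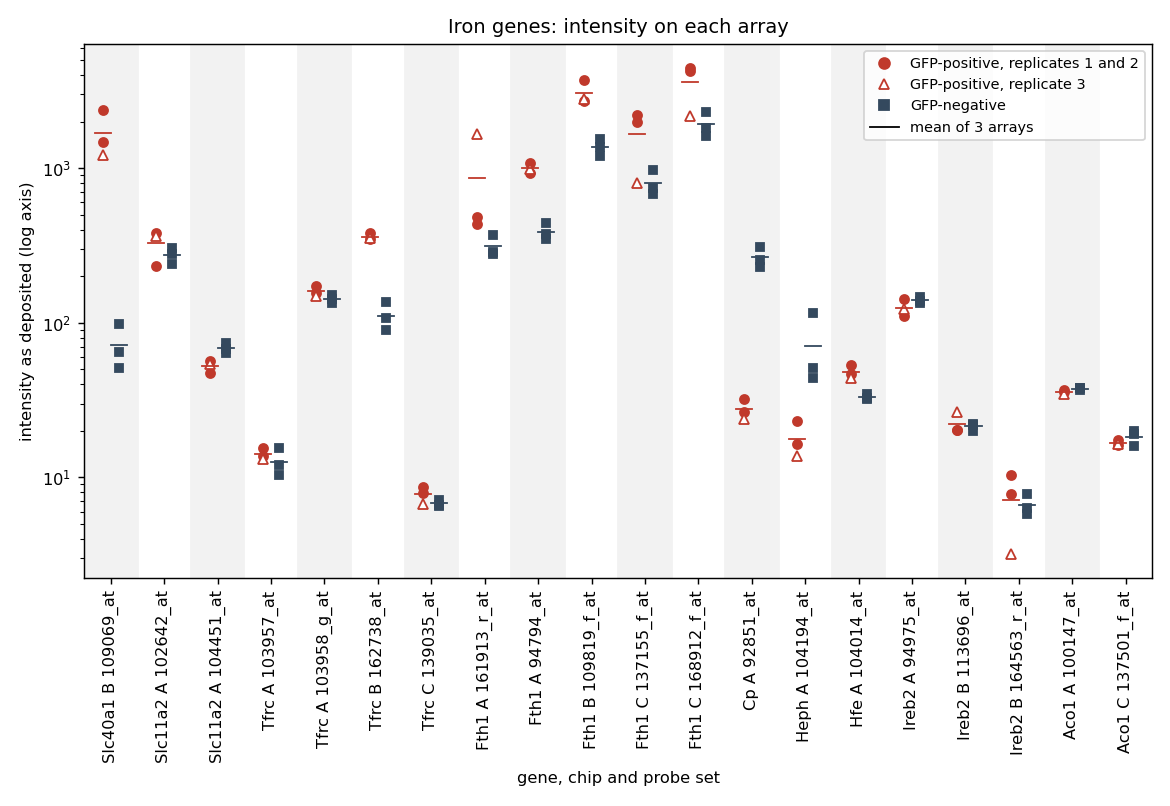
Deposited intensity (log axis) of the 20 probe sets on each array, labelled by gene, chip and probe set. Circles are GFP-positive replicates 1 and 2, open triangles GFP-positive replicate 3, squares GFP-negative arrays and short lines the means of 3 arrays. Slc40a1 lies at 1225 to 2390 in GFP-positive and 50.8 to 98.2 in GFP-negative cells, and Cp lies the other way, at 23.7 to 32.3 against 229.9 to 308. Intensities of different probe sets are not comparable as levels.

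Promoter sequences are shown for the genes that differed and have an entry in the RefSeq promoter table (build GRCm38.p6) at the most downstream listed start, namely Tfrc, Hfe, Fth1 and Cp. The table matched 7 of the 10 genes, and Slc40a1, Slc11a2 and Heph had no entry. Each line gives the 250 bases before the start, 5′ to 3′, and capitals mark the letters of 4 motifs searched on both strands, none of which overlap here: ACGTG, the core of hypoxia response elements, TGACNNNGC, the core of antioxidant response elements, the GC box GGGCGG and the CCAAT box.
Tfrc, chr16:32608872-32609121, plus strand: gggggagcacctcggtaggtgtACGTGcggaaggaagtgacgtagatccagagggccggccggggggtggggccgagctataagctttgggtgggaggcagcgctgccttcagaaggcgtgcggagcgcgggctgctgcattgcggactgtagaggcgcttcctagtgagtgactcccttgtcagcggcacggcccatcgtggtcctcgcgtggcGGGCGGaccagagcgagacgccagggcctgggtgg
Hfe, chr13:23710855-23711104, minus strand: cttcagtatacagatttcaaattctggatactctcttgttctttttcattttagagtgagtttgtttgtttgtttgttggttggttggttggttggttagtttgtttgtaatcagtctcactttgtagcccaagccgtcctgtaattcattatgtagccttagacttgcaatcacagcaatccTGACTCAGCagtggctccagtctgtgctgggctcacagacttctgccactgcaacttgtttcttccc
Fth1, chr19:9982396-9982645, plus strand: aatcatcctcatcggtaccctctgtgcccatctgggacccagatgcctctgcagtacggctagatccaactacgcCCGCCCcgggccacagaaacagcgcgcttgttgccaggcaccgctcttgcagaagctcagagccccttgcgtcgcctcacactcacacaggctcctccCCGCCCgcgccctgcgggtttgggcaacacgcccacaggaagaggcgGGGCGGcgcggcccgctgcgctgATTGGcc
Cp, chr3:19956999-19957248, plus strand: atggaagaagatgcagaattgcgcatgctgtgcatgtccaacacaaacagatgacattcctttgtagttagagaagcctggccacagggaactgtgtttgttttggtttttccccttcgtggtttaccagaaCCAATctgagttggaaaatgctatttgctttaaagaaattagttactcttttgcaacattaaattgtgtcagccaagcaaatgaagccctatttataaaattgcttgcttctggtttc

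Tfrc held 1 match to ACGTG, 228 bases before the start, and 1 GC box, where 16.6% and 32.7% of 32851 windows of this length held them. The Fth1 window held 3 GC boxes, 175, 77 and 30 bases before the start, and 1 CCAAT box, a motif present in 33.8% of windows. Cp had a window of 39.2% G and C, against 68% for Tfrc and 66.8% for Fth1, with 1 CCAAT box and no GC box. Hfe held 1 match to TGACNNNGC, 67 bases before the start, and none to the other motifs, in a window of 42% G and C. That motif was present in 10.2% of windows and in none of the windows of Tfrc, Fth1 and Cp. These matches describe letters only.

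Slc40a1 encodes ferroportin. Its single probe set (109069_at, chip B) read 2390, 1468 and 1225 in GFP-positive and 98.2, 50.8 and 64.8 in GFP-negative arrays. The lowest GFP-positive array was over 10 times as bright as the highest GFP-negative array, and GFP-positive replicate 1 was the brightest of all. The mean intensities stood at a ratio of 23.8, and the log2 difference of 4.27 (SE 0.29, 95% interval 3.57 to 4.97, adjusted p = 0.000175 in limma) was the tenth highest of 12411 probe sets on the chip. It was 4.47 without GFP-positive replicate 3 (adjusted p = 4.96e-05). Over all alternatives it ranged from 3.66 to 4.55 and passed in each.

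Macrophages that recycle red cells are known for strong ferroportin expression, and markers of that lineage were partly higher in the same arrays. Of 19 microglia and macrophage markers 4 passed as higher, against 7.42% of all probe sets, namely Lcp1 (4.87), Laptm5 (1.56), Fcer1g (1.496) and C1qb (0.78). The count was 3 without GFP-positive replicate 1 or any of the GFP-negative arrays. By their suffix _f, the Laptm5 and Fcer1g probe sets can match a family of similar sequences. The probe set of Csf1r has the suffix _r, for relaxed design rules. Csf1r, the receptor that defines the lineage, read 37.3, 41.2 and 930 against 94.3, 112.0 and 108.5, so that it was bright on GFP-positive replicate 3 and below all GFP-negative arrays on the other GFP-positive arrays (0.24, and -1.13 with adjusted p = 0.00108 without replicate 3). The summed intensity of the list was 1893 to 3035 against 687 to 733, with Lcp1 alone at 1047 ± 194 against 20.2 ± 4.94 (mean ± SD, n = 3 arrays each, as below). Csf1r was brighter on average than 79.7% of the probe sets on chip A. The other markers that did not pass spanned the middle and the low end of the chips. Cx3cr1, a chemokine receptor, was 58.2 ± 3.38 against 58.8 ± 2.28, the lysosomal Ctss 62.6 ± 9.05 against 65.8 ± 23.1 and Cd68 52.1 ± 20.04 against 38.4 ± 1.36. Other members of the list, Aif1 (25.4 ± 1.53 against 25.1 ± 1.08), Tyrobp (28.4 ± 2.56 against 28.9 ± 3.28), Mrc1 (6.83 ± 1.21 against 6.48 ± 1.12) and Cd163 (23.8 ± 7.77 against 20.5 ± 5.25) lay below the array medians of 40.7 to 44.6 on chips A and B in both populations. The part of macrophages in the Slc40a1 difference was not tested.

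The probe sets most like Slc40a1 were sought among the 10580 others with 1 symbol on chip B, by the Pearson correlation of log2 intensities over its 6 arrays. The 5 nearest were Lpar4, a lysophosphatidic acid receptor, Tnfaip1, Arhgap29, Trim34a and the cytokinesis gene Cep55, at 0.996 to 0.998. The points share the step between the populations, and 420 probe sets exceeded 0.95. The log2 differences of these 5 were 2.26, 1.14, 3.24, 2.08 and 1.65, all smaller than that of Slc40a1.

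Tfrc encodes the transferrin receptor, through which cells take up transferrin-bound iron. On chip B its probe set 162738_at read 383, 346 and 351 in GFP-positive and 137, 89.1 and 107.6 in GFP-negative arrays. The populations were well apart and the GFP-positive arrays lay close together. The log2 difference was 1.58 (SE 0.15, 95% interval 1.22 to 1.93, adjusted p = 0.000615) and 1.60 without GFP-positive replicate 3 (adjusted p = 0.000594), and it passed under every alternative, at 1.28 to 1.72.

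The other 3 Tfrc probe sets did not show this difference. On chip A, 103958_g_at, brighter on average than 84.7% of that chip's probe sets, read 156.8, 173.8 and 149.5 against 142.1, 150.8 and 134.1. These arrays overlapped, and the log2 difference was 0.15 (SE 0.08, 95% interval -0.05 to 0.36, adjusted p = 0.296). With arrays weighted by quality it was 0.24 and passed (adjusted p = 0.0451). The remaining pair were among the dimmest of their chips, 103957_at on chip A at 14.1 ± 1.17 against 12.6 ± 2.58 and 139035_at on chip C at 7.74 ± 0.95 against 6.77 ± 0.33. Their log2 differences were 0.08 and 0.06, and neither passed. The Tfrc probe sets therefore disagree, and the chips were tabulated separately, so the disagreement between chips was not tested.

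Erythroid precursors are known for very high transferrin receptor. Of 12 erythroid markers 1 passed as higher in GFP-positive cells, near the 7.42% of all probe sets, namely Hbb-b2 at 47.0 ± 24.5 against 8.98 ± 0.70. The list's summed intensity was 509 to 572 against 418 to 468. The Hbb-b2 call ended without any of the GFP-negative arrays. The alpha globin gene Hba-a1 passed as higher without GFP-positive replicate 3 (0.44, adjusted p = 0.0273, 109.1 ± 11.5 against 80.5 ± 8.77 with that array) and Rhag, of the red cell membrane, then passed as lower (-0.38, adjusted p = 0.0273). Alas2, the haem synthesis enzyme of red cell precursors, was 47.3 ± 3.54 against 43.9 ± 1.90 and Klf1, an erythroid transcription factor, 72.2 ± 1.63 against 64.4 ± 2.36, and neither passed. The part of red cells in the Tfrc difference was not tested.

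Slc11a2 encodes DMT1, which carries ferrous iron out of the endosome after uptake by the transferrin receptor. Its brighter probe set, 102642_at on chip A, read 233, 379.5 and 366 in GFP-positive and 239.8, 304 and 280.1 in GFP-negative arrays. GFP-positive replicate 1 lay below and the other GFP-positive arrays above all GFP-negative ones. The log2 difference was 0.21 (SE 0.20, 95% interval -0.28 to 0.70, adjusted p = 0.554). The dimmer probe set 104451_at on the same chip lay the other way, at 56.7, 47.0 and 54.3 against 63.5, 67.2 and 74.2, without overlap. Its log2 difference of -0.30 (SE 0.09, adjusted p = 0.0738) did not pass, and was -0.32 without GFP-positive replicate 3 (adjusted p = 0.0678) and -0.38 with arrays weighted by quality (adjusted p = 0.0186).

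Hfe encodes an MHC class I-like protein that binds the transferrin receptor and takes part in iron sensing. It read 46.9, 53.2 and 43.9 in GFP-positive and 34.6, 32.7 and 32.3 in GFP-negative arrays on chip A. The difference was small but the arrays did not overlap. At 0.38 (SE 0.08, 95% interval 0.18 to 0.57, adjusted p = 0.0233) it passed, also without GFP-positive replicate 3 (0.42, adjusted p = 0.0131). With any other single array omitted the call ended: the adjusted p was 0.0562 and 0.0673 on leaving out the first and second GFP-positive array, and 0.0699 to 0.0972 on leaving out a GFP-negative array.

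Fth1 encodes the ferritin heavy chain, the subunit with ferroxidase activity that lets the ferritin shell take in iron. It was measured by 5 probe sets, all among the brightest of their chips. On chip A, 94794_at read 926, 1087 and 981 in GFP-positive and 440.4, 372 and 349 in GFP-negative arrays. Every GFP-positive array was more than 2 times as bright as every GFP-negative one. The log2 difference was 1.33 (SE 0.11, 95% interval 1.06 to 1.61, adjusted p = 0.000825), and 1.34 without GFP-positive replicate 3 (adjusted p = 0.00169). On chip B, 109819_f_at read 3695, 2734 and 2785 against 1543, 1375 and 1206, also without overlap. It differed by 1.14 (SE 0.15, adjusted p = 0.00297), and by 1.21 without GFP-positive replicate 3 (adjusted p = 0.00208), while under quantile normalization the call ended (1.05, adjusted p = 0.0567).

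The other Fth1 probe sets depended on GFP-positive replicate 3. On chip C, 168912_f_at read 4429, 4242 and 2167 against 2308, 1829 and 1615, and 137155_f_at read 2210, 1986 and 807 against 972, 741 and 685. On both, GFP-positive replicates 1 and 2 were bright and replicate 3 fell among the GFP-negative arrays. Their log2 differences of 0.85 (SE 0.30, adjusted p = 0.154) and 0.94 (SE 0.39, adjusted p = 0.217) did not pass. Without that array they were 1.19 (adjusted p = 0.00413) and 1.39 (adjusted p = 0.00264). On chip A the same replicate number deviated upwards: 161913_r_at read 434, 486 and 1675 against 276, 371 and 289. Its difference was 1.16 (SE 0.51, adjusted p = 0.2), and 0.55 without GFP-positive replicate 3 (adjusted p = 0.042). Affymetrix uses the suffix _f for probe sets that can match a family of similar sequences, and ferritin heavy chain has many processed pseudogenes, so 3 of the 5 probe sets may read more than Fth1. The suffix _r marks probe sets made under relaxed design rules.

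**Figure D2:**
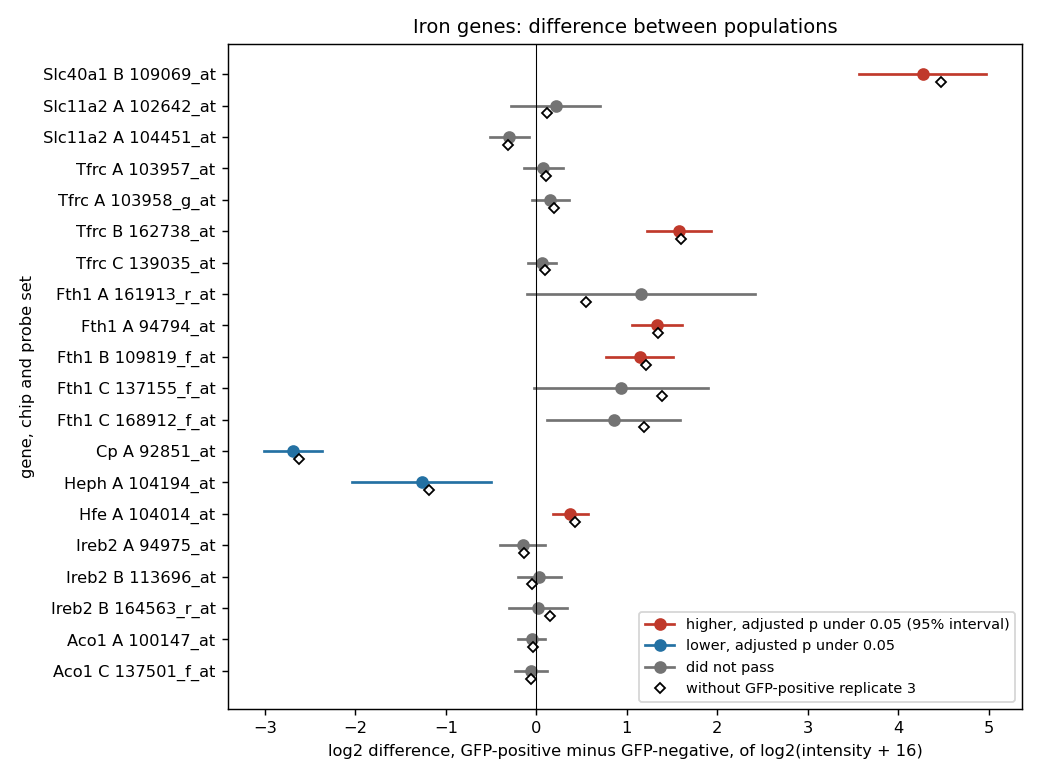
Log2 difference between populations (GFP-positive minus GFP-negative, of log2 of intensity plus 16) for the 20 probe sets, with 95% intervals from limma. Filled points are coloured by call and open diamonds give the difference without GFP-positive replicate 3. Slc40a1 at 4.27 and Cp at -2.69 are the extremes, and the diamonds of both chip C Fth1 probe sets lie further right, at 1.39 and 1.19, than their points.

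Cp and Heph encode ceruloplasmin and hephaestin, copper-containing ferroxidases that work beside ferroportin. Cp (92851_at, chip A) read 26.4, 32.3 and 23.7 in GFP-positive and 308, 229.9 and 255.6 in GFP-negative arrays. All GFP-positive arrays were dim and the populations were far apart. The GFP-negative mean was 9.63 times the GFP-positive mean, which lay below the array medians. Where that level is background the ratio is a lower bound. The log2 difference was -2.69 (SE 0.13, 95% interval -3.01 to -2.37, adjusted p = 0.00012), the 81st lowest of 12422 probe sets on the chip, and -2.62 without GFP-positive replicate 3 (adjusted p = 0.000273). It passed under every alternative, at -3.22 to -1.84.

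Heph (104194_at, chip A) read 16.3, 23.3 and 13.7 in GFP-positive and 115.6, 43.9 and 51.2 in GFP-negative arrays. GFP-negative replicate 1 was far brighter than the other GFP-negative arrays, and the populations did not overlap. The log2 difference of -1.27 (SE 0.31, 95% interval -2.03 to -0.51, adjusted p = 0.0401) passed narrowly. It was -0.92 without GFP-negative replicate 1 (adjusted p = 0.0235), and lay at the threshold without GFP-negative replicate 2 (-1.49, adjusted p = 0.05). The call ended on leaving out any GFP-positive array (adjusted p = 0.091, 0.0762 and 0.0608 for replicates 1 to 3), GFP-negative replicate 3 (adjusted p = 0.085) or with a pseudocount of 64 (-0.68, adjusted p = 0.0893).

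Müller glia, a main source of ceruloplasmin in retina, belong to the GFP-negative cells. The summed intensity of 9 Müller glia markers was 327 to 1226 in GFP-positive and 2082 to 3982 in GFP-negative arrays, and at most 357 in GFP-positive arrays without replicate 3, on which Glul, the glutamine synthetase gene, read 986. Rlbp1, a visual cycle protein of these cells, was 31.2 ± 5.90 against 1012 ± 416. In GFP-negative replicates 1 to 3 the Müller glia sum was 3982, 2589 and 2082, and that of an astrocyte list 1750, 1145 and 1047. Cp and Heph were also brightest there on replicate 1, but dimmer on replicate 2 than on replicate 3. The sum of 6 astrocyte markers was 203 to 235 against 1047 to 1750. Of these 3 passed as lower, against 8.86% of all probe sets, mainly Aldoc (32.9 against 727) and Pdgfra (20.2 against 418). Gfap (78.6 against 56.4), Pax2 and S100b did not pass. The sum of 10 markers of retinal pigment epithelium, which is known for hephaestin and ceruloplasmin, was 603 to 745 against 449 to 497. Only Dct passed as higher (229.5 against 85.0), against 7.42% of all probe sets, and its call ended without any of the GFP-negative arrays. The part of these cells in the Cp and Heph differences was not tested. The log2 ratio of Cp to Heph within an array was 0.39, 0.30 and 0.42 in GFP-positive and 1.30, 2.04 and 2.02 in GFP-negative arrays, a difference of -1.42 without overlap (exact permutation test, two-sided, p = 0.1, adjusted p = 0.2 over 2 pairs). With 3 against 3 arrays p cannot go below 0.1. In GFP-positive arrays both probe sets lay below the array medians, so their ratio there may hold little but background.

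Ireb2 and Aco1 encode the iron regulatory proteins IRP2 and IRP1, which bind the iron-responsive elements of ferritin, ferroportin, DMT1 and transferrin receptor messages. Aco1 doubles as the cytosolic aconitase. The brightest Ireb2 probe set (94975_at, chip A) read 143, 110.5 and 122 in GFP-positive and 146, 138.9 and 134.3 in GFP-negative arrays, which overlapped. Its log2 difference was -0.15 (SE 0.10, 95% interval -0.40 to 0.10, adjusted p = 0.396). Aco1 (100147_at, chip A) read 36.9, 35.4 and 34.6 against 37.8, 38.0 and 36.5, with an interval of -0.20 to 0.10.

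The remaining regulator probe sets were dim. On chip B, 113696_at for Ireb2 differed by 0.03 (95% interval -0.20 to 0.27) and 164563_r_at by 0.02 (95% interval -0.30 to 0.34), and on chip C 137501_f_at for Aco1 by -0.06 (95% interval -0.24 to 0.11). None of these 5 probe sets passed in limma, none had an unadjusted p under 0.05, and each interval lay within 0.4 of zero on the log2 scale. The pseudocount added before the log shrinks differences of dim probe sets, so narrow intervals there do not bound a change. This applies to 164563_r_at (means 7.15 in GFP-positive and 6.61 in GFP-negative arrays), 137501_f_at (16.7 and 18.2) and 113696_at (22.2 and 21.3). The interval of 94975_at, the brightest (125.1 and 139.9), is the least affected. The sign of both chip B Ireb2 differences turned under centring of arrays on their medians. Within arrays, the ratio of Ireb2 to Aco1 on chip A differed by -0.10 between populations (exact permutation test, two-sided, p = 0.3, adjusted p = 0.3 over 2 pairs).

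Other genes of iron handling were described by role, from 100 listed names of which 89 were measured by 178 probe sets. In GFP-positive cells 21 of these passed as higher and 13 as lower, against 7.42% and 8.86% of all probe sets, and their median log2 difference was 0.07. Of the 34 calls, 18 held with any single array left out, 12 higher and 6 lower. Without GFP-positive replicate 3 the counts were 31 and 23. Over all 36701 probe sets they then rose from 2723 to 4770 higher and from 3252 to 4805 lower. Without GFP-negative replicate 1 the counts of the iron genes were 13 and 8, and 8 were also lower without GFP-negative replicate 3. Counts over all probe sets are not given for other omissions. Shifts of counts on leaving out an array, here and below, are therefore not read as particular to iron genes.

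**Figure D3:**
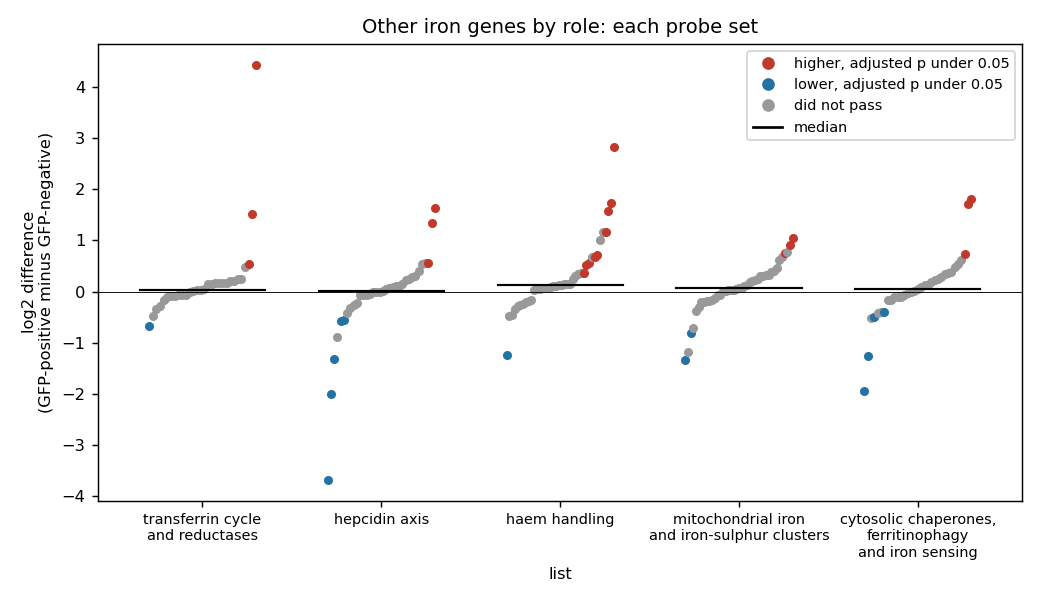
Log2 difference (GFP-positive minus GFP-negative) of each of the 178 probe sets of other iron genes, in 5 lists by role and sorted within each list. Red points were higher and blue points lower at an adjusted p under 0.05, grey points did not pass, and black lines are medians, which lie between 0.00 and 0.12.

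The transferrin cycle and reductase list held 30 probe sets, of which 3 were higher and 1 lower (median 0.04). Of all probe sets 7.42% were higher and 8.86% lower. Slc39a8, the metal importer ZIP8 that carries zinc, manganese and non-transferrin-bound iron, was 899 ± 287 against 24.9 ± 1.61 and rose by 4.43 (SE 0.24, adjusted p = 0.000194), although a dim chip B probe set did not pass (0.16, adjusted p = 0.258). Snx3, a sorting nexin that returns the transferrin receptor to the cell surface, was 2393 ± 204 against 829 ± 29.5 (1.51, adjusted p = 0.000232). Steap3, an endosomal ferrireductase, differed by 0.54 (adjusted p = 0.0401), a call that held only without GFP-positive replicate 1 when single arrays were omitted (adjusted p = 0.0621 without GFP-positive replicate 3). Its relative Steap2 fell on 1 of 3 probe sets, at 26.7 ± 2.97 against 52.0 ± 3.65 (-0.67, adjusted p = 0.00369). Exoc6, an exocyst subunit, was the brightest that did not pass (0.24, SE 0.29). Without GFP-positive replicate 3 there were 2 higher and 2 lower.

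The hepcidin axis is the route through which BMP signals from endothelium set the hormone that removes ferroportin. It had 3 of 34 probe sets higher and 5 lower (median 0.00), against 7.42% and 8.86% of all probe sets. The signal transducer Smad1 rose on both of its probe sets (1.62 and 1.33, adjusted p = 0.0026 and 0.00302), and the inhibitor Smad7 by 0.56 (adjusted p = 0.00547). Neo1, which encodes the hemojuvelin partner neogenin and is also a neural guidance receptor, was on 1 of 2 probe sets 146 ± 24.2 against 2041 ± 115 (-3.68, adjusted p = 1.78e-05). The receptor gene Bmpr1a was lower on 3 of 5 probe sets (-0.58, -1.99 and -1.32), the first of which lost its call without GFP-negative replicate 3 (adjusted p = 0.0576). Smad4 was lower on 1 of 2 (-0.55, adjusted p = 0.0225), a call that ended without GFP-positive replicate 2 or any GFP-negative array. Bmpr2 was the brightest that did not pass (0.11, SE 0.22). Hepcidin itself (Hamp), looked up after its values were seen, was dim in both populations at 25.2 ± 2.61 against 22.1 ± 1.64. Without GFP-positive replicate 3 there were 7 lower, and without GFP-negative replicate 3 there were 3.

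Haem handling had 9 of 40 probe sets higher and 1 lower (median 0.12), against 7.42% and 8.86% of all probe sets. The transporter gene Abcg2, whose product exports porphyrins, was 1411 ± 110 against 191 ± 66.0 (2.83, adjusted p = 0.000627), while its dim probe sets on chips B and C did not pass (1.16 and 1.01, and 1.48 and 1.32 with adjusted p = 0.00875 and 0.0202 without GFP-positive replicate 3). Flvcr2, an endothelial transporter long grouped with haem carriers, was 67.9 ± 21.7 against 8.65 ± 1.25 (1.74, adjusted p = 0.00173). Genes of haem synthesis that rose were Alas1, the first enzyme (1.17, adjusted p = 0.0167), Alad on both probe sets (0.56 and 0.68) and Urod on 1 of 3 (0.53, adjusted p = 0.0428). The biliverdin reductase genes Blvra (0.72) and Blvrb (0.37 and 1.58, on 2 of 3 probe sets) also rose. Other haem synthesis genes of the list did not pass, namely Alas2 (0.08), Uros (0.10 and 0.14), Cpox (-0.28 and -0.26), Ppox (-0.20 and 0.12) and Fech (0.04). Pgrmc1, a haem-binding membrane protein, fell by 1.24 (adjusted p = 0.0161). Only the calls of Abcg2, Flvcr2 and the chip A probe set of Alad held with each array left out in turn. The brightest that did not pass was the haem oxygenase gene Hmox2 on chip C (314 ± 323 against 327 ± 86.8, -0.46, SE 0.65, and -1.22 with adjusted p = 0.0128 without GFP-positive replicate 3). A Urod probe set on chip A, chosen after its values were seen, had a direction that turned with GFP-positive replicate 3 (888 ± 1486 against 96.5 ± 22.6, 0.68, and -1.27 with adjusted p = 0.00489 without that array). Leaving out GFP-positive replicate 2 gave 5 higher, and leaving out GFP-negative replicate 1, 2 or 3 gave 3, 5 or 4. Without GFP-positive replicate 3 there were 11 higher and 5 lower. Pgrmc1 lost its call without GFP-positive replicate 2 (adjusted p = 0.0563) and without GFP-negative replicates 2 (0.0604) or 3 (0.0654).

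Among genes of mitochondrial iron and iron-sulphur clusters, 3 of 41 probe sets were higher and 2 lower (median 0.06). The shares over all probe sets were 7.42% and 8.86%. Bola2, a cytosolic iron chaperone partner, was 90.2 ± 18.7 against 34.7 ± 3.85 (1.05, adjusted p = 0.00562), Cisd2 rose by 0.91 on 1 of 3 probe sets (adjusted p = 0.00598) and the co-chaperone Hscb by 0.76 (adjusted p = 0.0186), the last not without GFP-negative replicates 2 or 3. The mitochondrial membrane protein gene Cisd1 differed by -0.82 on 1 of 3 probe sets (adjusted p = 0.0351), with no call without GFP-positive replicate 2 or any GFP-negative array, and Ciao1, of cytosolic cluster assembly, by -1.34 on 1 of 3 probe sets (adjusted p = 0.0146, and 0.0695 without GFP-negative replicate 1). The chaperone gene Hspa9 was the brightest that did not pass (-0.37, SE 0.28). Without GFP-positive replicate 3 there were 7 higher and 6 lower. Leaving out GFP-positive replicate 1 gave 4 lower, GFP-negative replicate 1 gave 0, and GFP-negative replicate 2 or 3 gave 1.

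Cytosolic chaperones and iron sensors had 3 of 33 probe sets higher and 4 lower (median 0.05), against 7.42% and 8.86% of all probe sets. Epas1, which encodes HIF-2 alpha and whose message carries an iron-responsive element, was 3612 ± 577 against 1059 ± 380 on chip B (1.80, adjusted p = 0.00342) and differed by 0.22 on a dim chip A probe set (adjusted p = 0.0937). Nfe2l2, which encodes NRF2, a known activator of ferritin and ferroportin genes, was 159 ± 64.7 against 35.8 ± 9.65 (1.70, adjusted p = 0.0162), a call that ended without any of the GFP-negative arrays (adjusted p = 0.0545 to 0.0615). Cul1, a subunit of the ubiquitin ligase that removes IRP2, rose on 1 of 3 probe sets (0.74, adjusted p = 0.01). Fbxl5, the iron-sensing subunit of that ligase, was lower on 1 of 3 (-0.50, adjusted p = 0.038), with the others at 0.29 and 0.48, a call which held only without GFP-negative replicate 2 when single arrays were omitted. Bdh2, linked to siderophore synthesis, fell by 1.94 (adjusted p = 0.00923), the iron chaperone relative Pcbp3 by 1.26 on 1 of 6 probe sets (adjusted p = 0.00847) and the prolyl hydroxylase gene Egln1 by 0.40 on 1 of 4 (adjusted p = 0.0482). Other Egln1 probe sets lay the other way without passing, at 0.33 (274.5 ± 41.3 against 213 ± 15.6) and 0.14, and the last at -0.02. The Egln1 call ended without GFP-positive replicate 1 or any GFP-negative array. Hif1a was the brightest that did not pass (-0.11, SE 0.30). Without GFP-positive replicate 3 there were 7 higher, and without GFP-negative replicates 1 or 3 there were 2 lower.

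**Figure D4:**
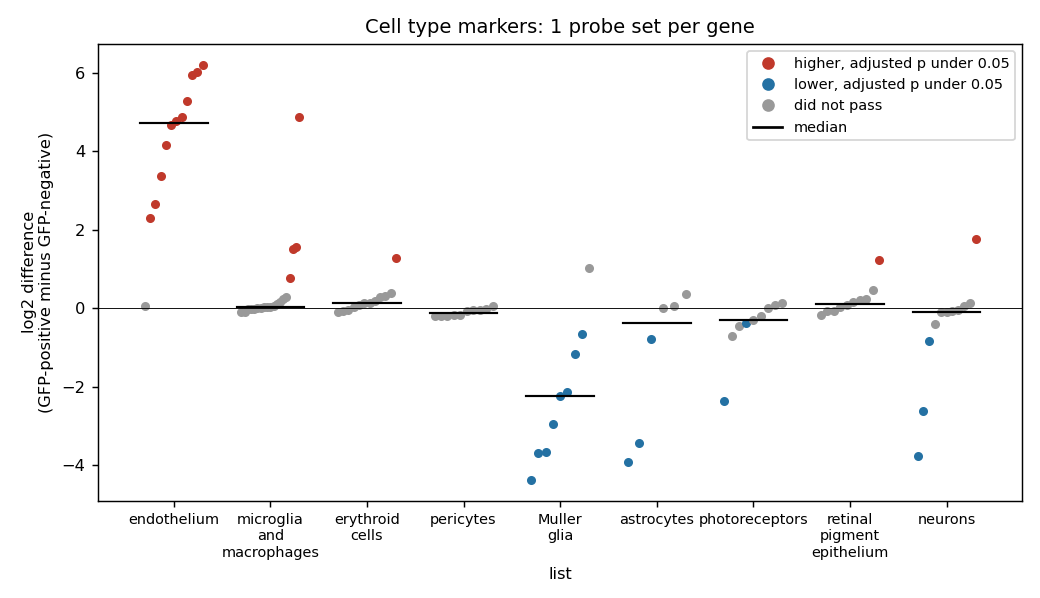
Log2 difference (GFP-positive minus GFP-negative) of cell type markers, 1 probe set per gene, with medians as black lines and calls coloured. Endothelial markers have a median of 4.73 and Müller glia markers one of -2.24, whereas the medians of microglia and macrophages (0.03), erythroid cells (0.13) and pericytes (-0.13) lie near 0.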

How the data were processed

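The values are linear intensities per probe set, as the authors deposited them, from 18 one-colour Affymetrix MGU74v2 arrays. Their summarisation, background correction and normalization by the authors are not given in the sources used here. The deposited scaling was kept. Detection calls were not used, so dim intensities may be no more than background. Names came from the platform's annotation, and probe sets with 1 symbol were used (10833, 10581 and 7717 on chips A, B and C).

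Each chip was fitted whole with limma 3.58.1 in R 4.3.3 on log2 of intensity plus 16, with lmFit, eBayes and Benjamini-Hochberg adjustment within the chip, at a threshold of 0.05. That scale understates changes of dim probe sets. No replicate block was used. Marker genes were measured by their brightest probe set on the first chip that held them. Named were all member probe sets, all other iron genes that passed, and the brightest of each list, by mean log2 intensity, that did not. Haem synthesis genes that did not pass are given beside those that did. Members, lists and alternatives were chosen with earlier results of these data known, including that GFP-positive replicate 3 stands apart. On simulated data built from the arrays' spread, with 200 changed probe sets per chip, the fit recovered 71%, 76% and 81% of the changes of size 1 (log2) on A, B and C respectively. False calls there numbered 14, 7 and 8 in the same order. Figures were drawn with matplotlib 3.10.9.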

Additional observations from a re-analysis of the deposited data

How the results depend on the processing

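The 5 higher and 2 lower member probe sets were 8 higher and 3 lower with array weights. There were 4 higher under quantile normalization, with brighter probe sets only, with the replicate block, at an adjusted p under 0.01 and at a minimum of 2-fold. Over the omission of single arrays the counts were 4 to 8 higher and 1 to 2 lower. The lower count was 1 with a pseudocount of 64, with brighter probe sets only (which leaves out Heph), with a replicate block and at an adjusted p under 0.01. The lost call was Heph throughout. Among the other iron genes the higher count was 13 to 31 and the lower count 8 to 23 when single arrays were left out, and the lower count was 8 with the replicate block.

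Of 172 values of single member probe sets under alternatives other than array omission, 159 kept direction and call, 4 lost and 4 gained a call and 5 changed sign. Of 120 values with an array left out, 104 kept both, 9 lost and 3 gained a call and 4 changed sign. The sign changes were those of dim Ireb2 probe sets near 0 on chip B. The first (113696_at) was -0.013 under quantile normalization, -0.005 with median-centred arrays, -0.041 with array weights, and ran from -0.044 (without GFP-positive replicate 3) to 0.069 when single arrays were left out. The second (164563_r_at) was -0.013 with median-centred arrays, -0.01 with a pseudocount of 1 and ran from -0.079 to 0.151 when single arrays were left out. Where not stated, the cause was not tested.

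Nothing in the labels says whether same-numbered arrays of the populations were paired, and with 3 arrays each the correlations given next cannot settle it. Deviations of same-numbered arrays correlated at 0.175 to 0.292 for number 1 and at -0.368 to -0.135 for numbers 2 and 3. With the replicate block Heph (adjusted p = 0.0745) and Hfe (adjusted p = 0.0757) lost their calls, and 5 of the 7 member calls were shared. Under the alternatives run the difference in the Cp to Heph ratio was -1.658 to -1.161 and that in the Ireb2 to Aco1 ratio -0.171 to -0.028. The pair of Fth1 and Ftl1 could not be run, as Ftl1 has no probe set of its own. Dim probe sets, without detection calls, limit what can be said of Ireb2, Aco1 and 2 of the Tfrc probe sets.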
